A study of Mus musculus with 8 samples.

Results

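The cytosolic ribosomal protein genes were examined in RNA-seq of primary mouse oligodendrocyte progenitors, glial precursors that divide and can mature into the cells that make myelin. Members were the genes whose symbols carry the Rpl or Rps stem and a number, with Rplp0, Rplp1, Rplp2 and Rpsa and without Rps27l. The rule found 79 members among the 24155 genes of the table, 48 of the large subunit and 31 of the small one. Of these, 76 were annotated as protein-coding, Rpl32l and Rpl6l as processed pseudogenes, and Rps4l as a transcribed processed pseudogene. The rule used no measured value, but the family was proposed with earlier results of these data known.

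In the cKO group, 4 progenitor cultures were infected with an adenovirus carrying RFP and iCre, and in the control group 4 cultures received the same kind of virus with RFP alone. Cells of both groups came from pups at postnatal day 7 with floxed alleles of both Ehmt1 and Ehmt2, which encode the partner histone H3 lysine 9 methyltransferases GLP and G9a. Both were immunopanned (captured on antibody-coated dishes), grown with 10 ng/mL PDGF-AA and 20 ng/mL bFGF, and infected for 6 h at a multiplicity of 10. RNA was taken at 72 h. The virus carries Cre into the cells it infects, so uninfected cells keep the floxed alleles. Replicates 1, 3, 4 and 6 name batches that each hold 1 cKO and 1 control library and the labels do not tie batches to separate animals. The p-values therefore measure the spread between these pairs, which may be technical.

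Ribosomal proteins coat and hold together the ribosomal RNA of the small and the large subunit, and dividing cells make them in nearly equal numbers. Their mRNAs are short and abundant, and in mammals they begin with a C followed by a run of pyrimidines, the 5′ terminal oligopyrimidine (TOP) motif, through which TOR signalling controls their translation. Mammalian genomes also hold many reverse-transcribed copies of these genes, most of them without introns and annotated as processed pseudogenes. Progenitors that grow and later build myelin depend on a high rate of protein synthesis.

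Most ribosomal protein genes were slightly higher in cKO than in control progenitors, and the differences were small. In edgeR's quasi-likelihood fit with the batch as a block, 21 members rose past a Benjamini-Hochberg adjusted p of 0.05, 1 fell and 57 did not pass, against 10.0% of all 18102 genes tested that rose and 10.4% that fell. Those that rose were 13 large subunit and 8 small subunit genes, with log2 fold changes of cKO over control between 0.094 and 0.19, so the largest rise was 14.0%. Of the 21, 20 were annotated as protein-coding and 1, Rpl6l, as a processed pseudogene. The median over all 79 members was 0.083, or 5.92%, against -0.0066 for all genes tested. All 79 passed the filter on low counts, and 67 of them had a positive fold change, against 48.3% of all genes tested. The 1 member that fell was the pseudogene Rps4l.

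Batch and group were then set side by side as sources of spread. Within batches, 47 members were higher in cKO in all 4 pairs, against 19.5% of all genes tested, and 3 were lower in all 4, against 21.3% of all genes tested. Without regard to batch, the cKO and control libraries overlapped for 74 members. Rpl39, Rpl7, Rps24 and Rpl36 were higher in every cKO library than in any control library, against 2.40% of all genes, and Rps4l was lower, against 1.28% of all genes. Batch accounted for a median of 72.7% of the sum of squares of a member's log2 CPM (counts scaled by library size), group for 18.1%, and 6.13% was left. Over all genes tested the medians were 81.1%, 6.26% and 5.99%. Batch 3 had the highest level of 65 members among cKO libraries and of 63 members among control libraries. The median within-pair log2 difference of the members was 0.13 in batch 1, 0.067 in batch 3, 0.083 in batch 4 and 0.028 in batch 6. In these batches 72, 65, 66 and 50 members were higher in cKO, against 48.0%, 47.8%, 50.7% and 48.1% of all genes tested. The medians over all genes tested were -0.010, -0.013, 0.0032 and -0.0088. In an edgeR fit on group alone, 0 members passed at a median of 0.081, against 0.00552% of all genes that rose and 0.0110% that fell, which is 3 genes in all. In that fit 2 members had an unadjusted p under 0.05, against 43 in the fit with the block. DESeq2 with the block called 14 members higher and 1 lower, against 8.41% and 8.88% of 17400 genes. Without replicate 1, 3 or 4, the blocked fit called 8, 8 and 7 members higher, all among the 21, against 6.77%, 6.21% and 6.63% of all genes tested. These counts of 79 are not far above the shares of all genes. Without replicate 6 it called 27, against 9.43% of all genes.

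**Figure D1:**
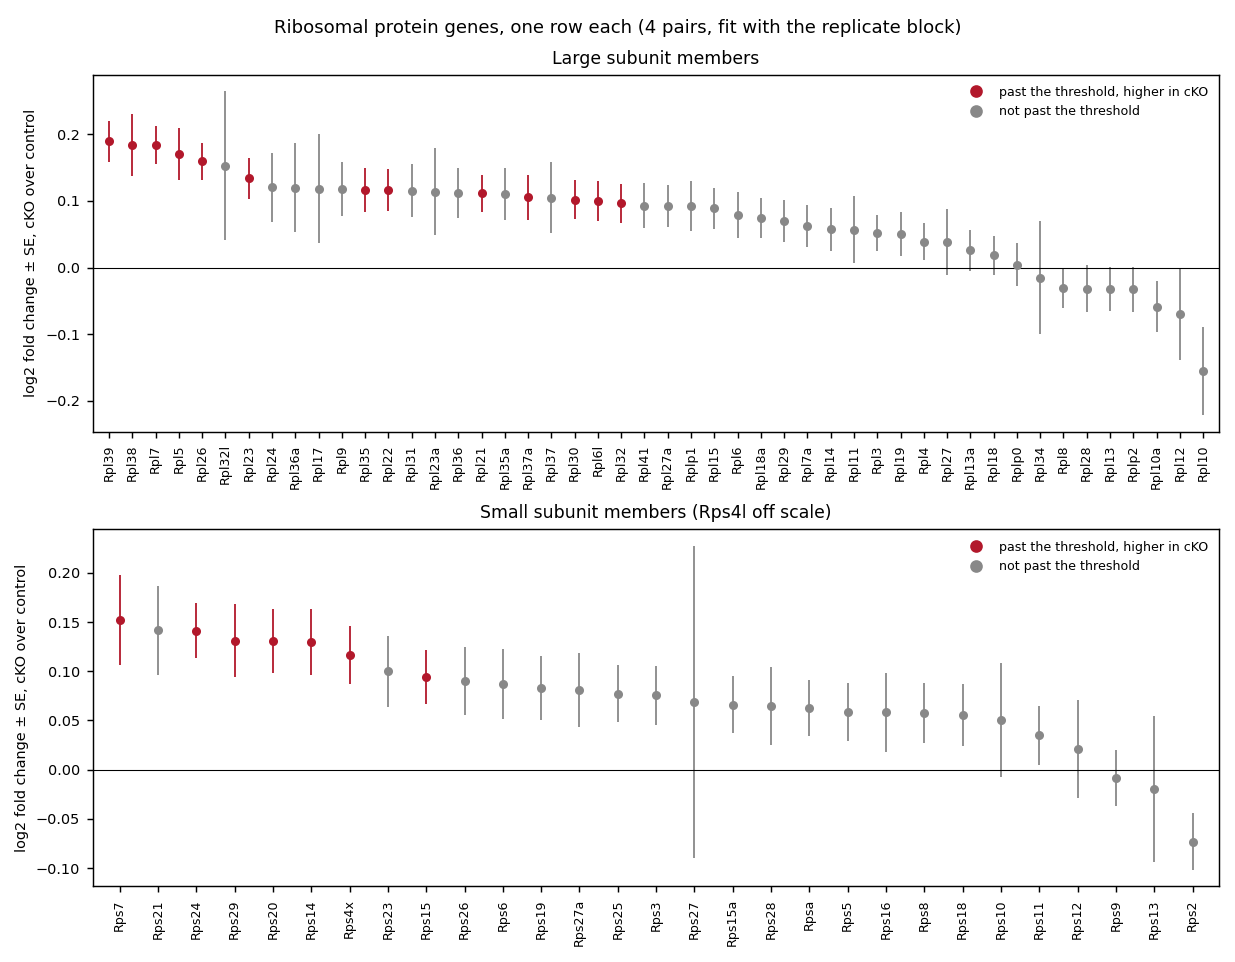
Log2 fold change of cKO over control for the ribosomal protein genes drawn, sorted within the large subunit (upper panel) and the small subunit (lower panel); bars are the SE of the edgeR fit over 4 pairs. Red points passed an adjusted p of 0.05 and lie between 0.094 and 0.19, and most grey points lie above 0; Rps4l, at -1.29, is off the scale.

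The labels held in both targeted genes. Ehmt1 averaged 41.5 ± 3.98 CPM in cKO and 95.5 ± 5.58 CPM in control libraries (SD, n = 4 each; log2 fold change -1.20 ± 0.04 SE), and Ehmt2 averaged 58.4 ± 5.86 CPM in cKO and 177 ± 17.1 CPM in control libraries (-1.60 ± 0.03). Totals ran from 43542742 to 65374488 counts per library. Most of the 8 progenitor and lineage markers listed were abundant, with summed levels of 7932 to 11892 CPM in cKO and 8626 to 13213 CPM in control libraries; 1 of the 8 rose and 2 fell, with a median of -0.044. Markers of mature oligodendrocytes summed to 291 to 2591 CPM in cKO and 237 to 1614 CPM in control libraries, and 5 of the 7 tested rose. Neuron markers summed to 243 to 471 CPM in cKO and 219 to 424 CPM in control libraries, and 4 of 8 rose. Astrocyte markers summed to 897 to 2499 CPM in cKO and 898 to 2661 CPM in control libraries, with 2 of 8 higher and 2 lower. The microglia markers Csf1r, P2ry12, Ptprc and Cd68, the 4 of 10 analysed here, each averaged under 1 CPM over all libraries or did not pass the filter. The 2 tested summed to at most 3.14 CPM in cKO and 1.65 CPM in control libraries, and both rose. Of 7 fibroblast and vascular markers, 6 averaged under 1 CPM over all libraries or did not pass the filter, Col1a1 and Pdgfrb among them. The 6 tested summed to at most 6.90 CPM, and 2 of them rose. In these bulk samples, fewer cells of a type and less RNA per cell cannot be told apart. The part of the markers' shifts in the members' differences was not tested.

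Taken as one sum, the members' own counts made up 1.52%, 1.65%, 1.47% and 1.46% of all counts in cKO replicates 1, 3, 4 and 6, against 1.35%, 1.56%, 1.33% and 1.39% in the control replicates. The mean was 1.52% ± 0.09 in cKO and 1.41% ± 0.11 in control (SD, n = 4 each), and the share was higher in cKO in all 4 pairs, by 5.24% to 12.8% of the control value. Large subunit genes took 0.880% ± 0.044 in cKO and 0.812% ± 0.058 in control, and small subunit genes 0.644% ± 0.044 in cKO and 0.595% ± 0.048 in control. The medians of the fold changes were 0.093 for the large and 0.076 for the small subunit. Ribosomal RNA genes, CT010467.1 among them, took 7.67% ± 1.05 of counts in cKO and 9.18% ± 0.95 in control. Their share was lower in cKO in all 4 pairs, and a smaller share of them raises every other share. Mitochondrial genes took 3.31% ± 0.28 of counts in cKO and 2.80% ± 0.37 in control. They were higher in cKO in all 4 pairs, by 11.9% to 23.8% of the control value. The mean over pairs was 19.0%, against 8.44% for the members' share, but in batch 1 the members' relative difference was the larger. The part of these shifts in the fold changes of single members was not tested. With ribosomal RNA and mitochondrial genes left out of the total, the members' share was 1.71% ± 0.09 in cKO and 1.60% ± 0.10 in control, and it was again higher in all 4 pairs.

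**Figure D2:**
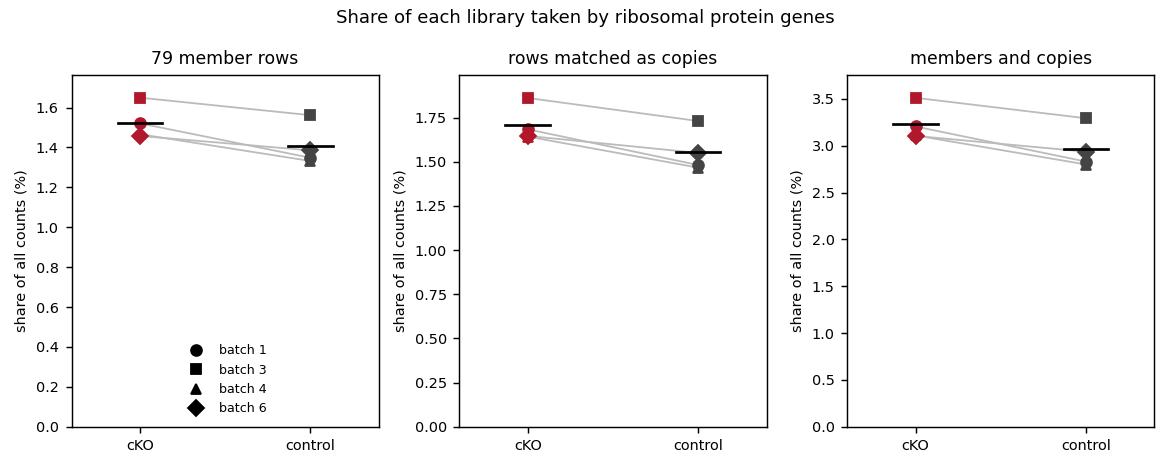
Share of all counts in each library taken by the 79 members (left), by the genes matched to them as copies (middle) and by both (right), for cKO and control libraries; each line joins the 2 libraries of a batch and the black bar is the group mean. All 4 batches are higher in cKO in each panel, while the groups overlap.

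What a member's count measures depends on its copies. By sequence, 280 other genes of the table matched a member, meaning that at least 50% of their 31-base words were in the member's transcript; 66 members had such a copy and Rpl21 had the most, 19. For 29 members no 50-base window of the coding sequence was unique among the annotated transcripts, and only 12 members had at least 50% of windows unique. The deposited counts of a family stood partly at the copies. In 15 families the member's own count was under 10% of the family's total, and in 41 it was under 50%. For Rps27, a small subunit protein with a zinc finger, the share was 0.701%; for Rpl10, a late-joining large subunit protein that lies by the peptidyl transferase centre, it was 2.15%. Most counts of these families stood at Rps27rt and Rpl10-ps3, copies annotated as protein-coding. The coding sequence of Rpl10 (642 bases, chrX:74270812-74273135, mm10, plus strand) was matched without a difference by Rpl10-ps3 (chr9:50344201-50344968, minus strand), so no read inside it can tell them apart. Rps27 and Rps27rt were identical over 252 coding bases, and Rpl5 and Gm15500 over 891. Rpl34 and Rpl34-ps1 (chr6:71124610-71124963, plus strand) differed at 2 of 351 coding bases. Coding bases 73 to 132 of Rpl34 and the matching stretch of its copy show how little separates them, with the differing base in capitals.
Rpl34: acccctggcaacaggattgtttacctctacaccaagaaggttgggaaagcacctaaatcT
Rpl34-ps1: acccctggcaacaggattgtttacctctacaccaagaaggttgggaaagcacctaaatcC

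With each member's count summed with its copies and all genes fitted again, an alternative added after seeing the data, 38 members rose, 1 fell and 40 did not pass, against 10.2% of 17865 genes that rose and 10.2% that fell. The median was 0.099 on the log2 scale, or 7.09%, and 73 of 79 members had a positive fold change, against 48.6% of all genes. Of the 21 members that rose by their own counts, 19 did so here too; Rpl38 and Rps29 did not, at 0.12 ± 0.04 and 0.13 ± 0.04 (SE). Another 19 rose only in this fit. Of these, Rps21 has no matched copy, and its edgeR adjusted p was 0.0496 here and 0.0510 by its own count, with the rest of the table fitted again around it. Members and copies together took 3.23% ± 0.19 of counts in cKO and 2.96% ± 0.23 in control libraries (SD, n = 4 each), and the copies alone 1.71% ± 0.10 in cKO and 1.56% ± 0.12 in control. Among the 237 copies that passed the filter, 40 rose and 1 fell by their own counts, and their median was 0.11. In that fit 10.0% of all 18102 genes tested rose and 10.4% fell. Some copies hold identical counts, such as Gm10240 and Gm13370, which both rose, so the copies are not all separate measurements. The summed count of calls also hung on the pairs, at 11, 12 and 14 higher without replicate 1, 3 or 4, against 6.89%, 6.32% and 6.76% of all genes. It was 43 without replicate 6, against 9.48% of all genes, and 0 in the fit on group alone.

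Single families changed their place when summed, and those named here were chosen after their values were seen. Rpl34, a large subunit protein, had 5.62, 5.79, 6.01 and 5.75 CPM of its own in cKO replicates 1, 3, 4 and 6, against 5.12, 6.44, 6.09 and 5.83 CPM in the control replicates, with overlapping groups (log2 fold change -0.02 ± 0.08 SE). With its copies it had 131, 145, 146 and 143 CPM in cKO, against 103, 121, 120 and 129 CPM in control, so every cKO library was above every control library. Its summed log2 fold change of 0.26 ± 0.04 was the largest of the family sums (edgeR adjusted p = 0.00099). Rpl10 had the lowest fold change among the protein-coding members by its own count, -0.16 ± 0.07 (adjusted p = 0.12 in edgeR), with 9.94 to 12.02 CPM in cKO and 11.5 to 13.7 CPM in control. Summed with its copies it had 517 to 592 CPM in cKO and 491 to 576 CPM in control, and the fold change was 0.04 ± 0.03, not past the threshold. Rps27 averaged 1.88 CPM in cKO and 1.79 CPM in control by its own count (0.07 ± 0.16), and 275 ± 23.1 CPM in cKO and 249 ± 27.1 CPM in control with its copies (SD, n = 4), where it rose by 0.14 ± 0.03.

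**Figure D3:**
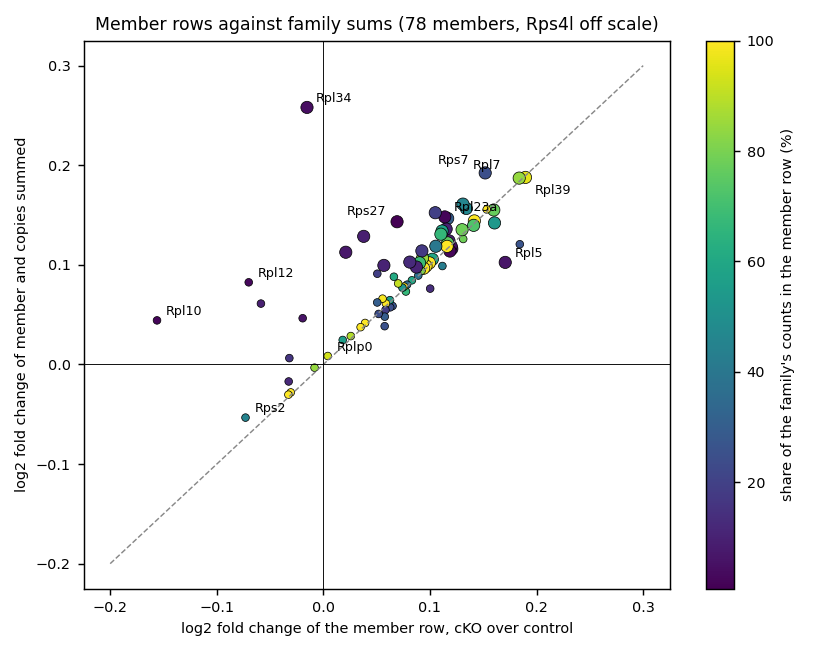
Log2 fold change of cKO over control by a member's own count (horizontal axis) and with its copies summed (vertical axis) for 78 members; colour gives the share of the family's counts that the member's own count holds, and large points rose in the summed fit. Members in yellow lie on the diagonal, and the dark points with a small share of their family, such as Rpl34 and Rpl10, lie farthest above it.

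Among the members that rose, those with the smallest p are described first; Rps4l, which fell, had the smallest p of all and follows them. Rpl39, a small basic protein of the peptide exit tunnel (chrX:37082520-37085402, mm10, minus strand), had 137, 158, 147 and 152 CPM in cKO replicates 1, 3, 4 and 6, against 121, 132, 131 and 137 CPM in the control replicates. The lowest cKO library stood just above the highest control library. Its log2 fold change was 0.19 ± 0.03 (SE; edgeR adjusted p = 0.00225), and its own count held 95.9% of its family. Rpl7, a large subunit protein (chr1:16101295-16104662, minus strand), had 521, 599, 553 and 569 CPM in cKO, against 454, 519, 504 and 497 CPM in control, again without overlap, and rose by 0.18 ± 0.03 (adjusted p = 0.00171 in edgeR). Rps24, a small subunit protein whose human gene is among those mutated in Diamond-Blackfan anaemia (chr14:24487125-24496959, plus strand), had 342, 384, 365 and 363 CPM in cKO, against 317, 342, 332 and 328 CPM in control. It rose by 0.14 ± 0.03, and its lowest cKO value was barely above its highest control value. Rpl26, a protein at the edge of the exit tunnel, rose by 0.16 ± 0.03 with within-pair differences from 0.14 to 0.18, and its groups met at 244 CPM, the level of both the lowest cKO and the highest control library.

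Rpl23, Rps20, Rpl21, Rps4x and Rpl5 were higher in every pair while their groups overlapped. Rpl23, which binds MDM2 when free of the ribosome, rose by 0.13 ± 0.03, with 196 to 220 CPM in cKO and 179 to 204 CPM in control. Rps20 rose by 0.13 ± 0.03, Rpl21 by 0.11 ± 0.03 and Rps4x by 0.12 ± 0.03. Only part of Rpl21 can be seen, since none of its coding windows is unique and 19 copies share its sequence; its own count held 57.3% of the family, and the summed change was 0.13 ± 0.03. Rpl5 rose by 0.17 ± 0.04 on its own count of 43.9 to 61.5 CPM in cKO and 40.1 to 54.9 CPM in control. That count held 6.23% of the family, and with its copies Rpl5 had 711 to 840 CPM in cKO and 670 to 775 CPM in control and rose by 0.10 ± 0.03. Among the members just described, Rps4x and Rps20 no longer passed without replicate 1, Rpl21 and Rps4x without replicate 3, and Rpl23, Rpl21 and Rps20 without replicate 4.

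Rps4l moved against most of the family, and by far more. It had 6.31, 5.87, 3.72 and 4.52 CPM in cKO replicates 1, 3, 4 and 6, against 14.1, 12.6, 9.85 and 12.8 CPM in the control replicates, so that every cKO library was well below every control library. The log2 fold change was -1.29 ± 0.09 (SE), with within-pair differences from -1.496 to -1.09 and an edgeR adjusted p of 1.27e-05. In the fit on group alone it was -1.27 with an adjusted p of 0.137. It lies at chr6:148354656-148355598 (mm10, plus strand), while its parent Rps4x, a small subunit protein gene of the X chromosome, lies at chrX:102184941-102189394 (minus strand). Rps4x had 457, 505, 449 and 472 CPM in cKO, against 412, 455, 428 and 440 CPM in control, higher in each pair. The first 60 coding bases of Rps4x and the aligned bases of Rps4l are shown for how far the parent and the copy can be told apart; capitals mark the 7 differences.
Rps4x: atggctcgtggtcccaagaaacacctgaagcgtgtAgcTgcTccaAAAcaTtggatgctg
Rps4l: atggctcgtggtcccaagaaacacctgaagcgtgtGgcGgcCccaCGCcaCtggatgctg

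Rps4l has diverged further from its parent than Rpl6l and Rpl32l from theirs. Over 783 aligned coding bases the 2 sequences were 79.9% identical, with 157 mismatches, and the longest identical run was 35 bases. Of the 50-base windows of the Rps4l transcript, 85.1% were unique. As a member, Rps4l was left out when copies were matched, so it is not in the family sum of Rps4x. Rps4l lies opposite Tmtc1, and the counting may or may not have used the strand. Tmtc1 had 5.13 ± 1.70 CPM in cKO and 4.42 ± 1.65 CPM in control libraries (SD, n = 4), the opposite direction, and did not pass (0.23 ± 0.11 SE). The other 2 members with an l suffix are close copies on chromosome 10. Rpl6l, 98.7% identical to Rpl6 over 871 bases, had 138 to 163 CPM in cKO and 132 to 152 CPM in control and rose by 0.10 ± 0.03, while Rpl6 (165 to 183 CPM in cKO and 153 to 187 CPM in control) did not pass at 0.08 ± 0.03. Rpl32l, 96.0% identical to Rpl32 over 404 aligned positions, averaged 3.65 CPM in cKO and 3.28 CPM in control and did not pass (0.15 ± 0.11). Its parent Rpl32 averaged 359 CPM in cKO and 336 CPM in control and rose by 0.096 ± 0.029. Being members themselves, Rpl6l and Rpl32l were counted apart and left out of the family sums of Rpl6 and Rpl32. Rpl3l, Rpl10l and Rpl39l are not analysed here; of their parents, Rpl3 did not pass (0.05 ± 0.03), nor did Rpl10.

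**Figure D4:**
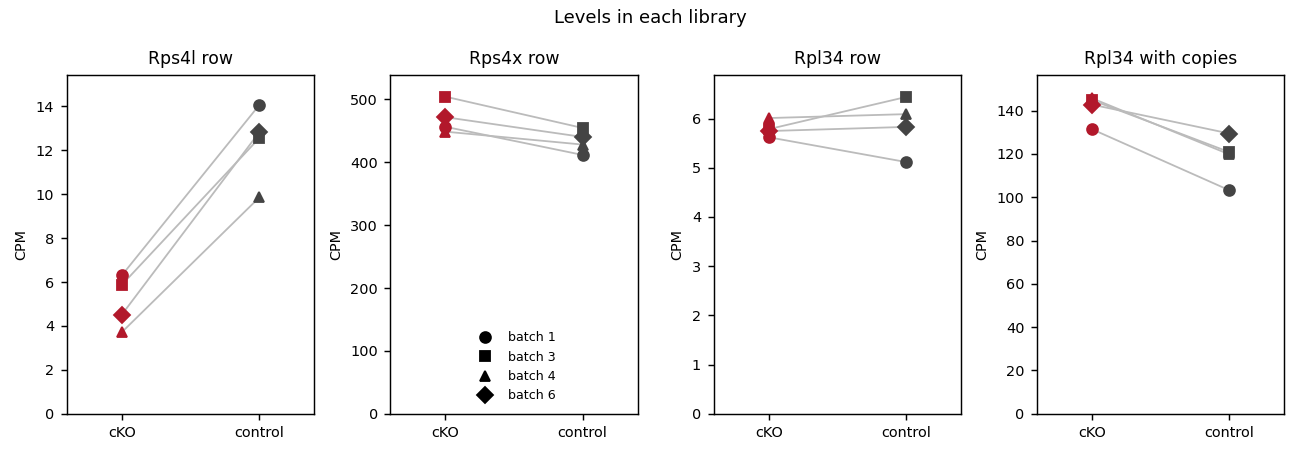
CPM in each library of Rps4l, its parent Rps4x, Rpl34 by its own count and Rpl34 with its copies, for cKO and control libraries; each line joins the 2 libraries of a batch. Rps4l is lower and Rps4x higher in cKO in all 4 batches, and the rise of Rpl34 shows only with its copies.

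Members with known separate roles varied among themselves. The stalk proteins Rplp0, Rplp1 and Rplp2, which recruit elongation factors to the large subunit, did not pass. Rplp0, at 787 to 852 CPM in cKO and 750 to 900 CPM in control, had a log2 fold change of 0.00 ± 0.03 and was higher in 2 of 4 pairs. Rplp1 was at 0.09 ± 0.04 and Rplp2 at -0.03 ± 0.03. Rpl5 and Rpl11 join 5S ribosomal RNA in a particle that, when free, binds MDM2; Rpl5 rose, and Rpl11 did not pass on its own count (0.06 ± 0.05) but rose with its copies by 0.099 ± 0.028, at 406 to 458 CPM in cKO and 376 to 419 CPM in control. Rps6, the substrate of S6 kinase, was at 0.09 ± 0.04 on its own count, which held 10.2% of the family, and rose by 0.098 ± 0.028 with its copies.

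The remaining members chosen by role were mostly short of the threshold. Rpsa, also known as the laminin receptor, was at 0.06 ± 0.03 with 490 to 672 CPM in cKO and 464 to 648 CPM in control. Rps19, the gene most often mutated in Diamond-Blackfan anaemia, was at 0.08 ± 0.03, and Rpl4, a core protein of the exit tunnel with no matched copy, was at 0.04 ± 0.03. Rpl22, which is free of copies too and has 69.0% of its windows unique, rose by 0.12 ± 0.03, with 250, 283, 291 and 310 CPM in cKO and 224, 254, 269 and 303 CPM in control, higher in each pair. The lowest fold changes after those of Rps4l and Rpl10 were -0.07 ± 0.03 for Rps2, a protein of the mRNA entry channel, and -0.07 ± 0.07 for Rpl12, which lies at the base of the stalk; neither passed. Rps2 was lower in all 4 pairs, at 346 to 430 CPM in cKO and 359 to 471 CPM in control. The SE of a member had a median of 0.033, so single changes of the size of the family median were near the limit of these 4 pairs.

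Levels were compared between members per kilobase of coding sequence, on the family sums. Rpl41, which encodes the shortest of the ribosomal proteins, stood at 7220 CPM per coding kilobase in cKO and 6704 in control. Next came Rpl23a, the docking site of the signal recognition particle at the exit tunnel, at 1740 in cKO and 1568 in control. Rps26, a protein of the mRNA exit channel, stood at 1398 in cKO and 1302 in control. The lowest were Rps7, at 257 in cKO and 225 in control, Rps21, at 287 in cKO and 260 in control, and Rplp2, at 314 in cKO and 321 in control. Untranslated bases are counted in the reads and not in this length, which raises the value of the shortest genes such as Rpl41. Among these 6, Rps7 rose by its own count (0.15 ± 0.05), and Rps7, Rpl41, Rpl23a and Rps26 rose with their copies, by 0.10 to 0.19. Rps21, which has none, passed only in the summed fit, at 0.14 ± 0.05. Rplp2 did not pass.

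Medians were also taken by where members lie and what they hold. The 29 members with 1 or more of 56 small nucleolar RNA genes inside them had a median log2 fold change of 0.063, and the 50 without had 0.091. The 4 members on the X chromosome had a median of 0.12. Members under 50 CPM by their own count had a median of 0.081 and those at 50 CPM or more had 0.085. The 12 members with at least 50% of windows unique, whose counts rest least on how shared reads were divided, had a median of 0.067. Of these 12, 3 rose and 1, the pseudogene Rps4l, fell, against 10.0% and 10.4% of all genes tested. The pseudogene Rpl32l is also among the 12. The 29 members with no unique window had a median of 0.089. These differences between groups of members were not tested.

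Promoters were read from RefSeq (GRCm38.p6), where 57 of the 79 members matched, from 250 bases before to 50 bases after the annotated start. A C followed by at least 4 pyrimidines (C or T), starting within 10 bases of the annotated start on the transcribed strand, was found in 32 of the 57, or 56.1%, against 30.8% of all 27025 promoters. The motif CCGGAAG, the core read by ETS-family factors, was found on either strand of the 300-base window in 38.6% of members and 9.12% of all promoters. AAGATGGC, the core of the YY1 motif, was in 7.02% and 2.88%, and TATAAA on the transcribed strand in the 50 bases before the start was in 0 of 57 members and 2.88% of all promoters. Of the 27 matched members that rose in the summed fit, 13 held the pyrimidine run and 12 held CCGGAAG; of the 30 others, 19 and 10 did. Windows of 30 bases centred on the start are printed for members that rose (Rpl38, Rps24 and Rpl35 by their own counts, Rps6 with its copies) and that did not pass (Rps9 and Rplp2), with the pyrimidine run in capitals. They were chosen after the values were seen, to show that the run occurs in members of both kinds. Rpl38 did not pass in the summed fit, so it is among the 30 others above.
Rpl38 (chr11:114668565-114668594, plus strand): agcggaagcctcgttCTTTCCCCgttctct
Rps24 (chr14:24490663-24490692, plus strand): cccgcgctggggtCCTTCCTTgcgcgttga
Rpl35 (chr2:39005117-39005146, minus strand): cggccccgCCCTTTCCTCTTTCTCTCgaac
Rps6 (chr4:86857353-86857382, minus strand): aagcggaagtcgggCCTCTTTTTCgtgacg
Rps9 (chr7:3704026-3704055, plus strand): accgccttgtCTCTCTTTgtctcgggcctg
Rplp2 (chr7:141447636-141447665, plus strand): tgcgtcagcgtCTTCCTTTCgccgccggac

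Other genes of translation did not all move with the members. Of 10 ribosomal protein genes and fusions that the symbol rule leaves out, 3 rose and 0 fell, with a median of 0.061. Among all genes tested, 10.0% rose and 10.4% fell. At an unadjusted p under 0.05, 4 of the 10 were higher and 0 lower. In DESeq2 and limma-voom 0 of the 10 fell, against 8.88% and 10.7% of all genes. Those that rose were Rps3a1 (0.13 ± 0.03), a small subunit gene, Rps27rt (0.14 ± 0.03) and Rpl36al (0.13 ± 0.03). Rps27l, a p53-responsive relative of Rps27, did not pass (0.09 ± 0.04). Rps27rt also counts among the copies that rose and in the summed count of Rps27. Of 16 genes for elongation factors and other TOP mRNAs, 4 rose and 1 fell, beside the same 10.0% and 10.4% of all genes. Their median was 0.029. Eef1a1, the factor that delivers aminoacyl-tRNA, had 7116 ± 518 CPM in cKO and 6503 ± 548 CPM in control (SD, n = 4) and rose by 0.13 ± 0.03. Naca, a chaperone of nascent chains, rose by 0.14 ± 0.03. Eef1a2, the form of muscle and neurons, rose by 2.03 ± 0.11, to 9.87 ± 5.27 CPM in cKO against 2.42 ± 1.30 CPM in control. Eef2k, the kinase that inactivates elongation factor 2, fell by 0.31 ± 0.04 on the log2 scale.

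Initiation factors were divided. Of 38 tested, 6 rose and 3 fell, with a median of -0.005, against 10.0% of all genes tested that rose and 10.4% that fell. Eif3e (0.17 ± 0.03), a subunit of the scaffold that loads the small subunit, Eif4a2 (0.13 ± 0.03), an RNA helicase, Eif4e (0.14 ± 0.03), the cap-binding protein, and Eif2s2 (0.14 ± 0.03), which helps to bring the initiator tRNA, all rose. Of 78 genes for cytosolic ribosome assembly and ribosomal RNA synthesis, 2 rose and 12 fell, with a median of -0.043. The count that fell is not far above the 10.4% of all genes tested that did. Npm1, a nucleolar chaperone, rose by 0.21 ± 0.03, with 258 ± 39.5 CPM in cKO and 224 ± 40.3 CPM in control. Rrs1, an assembly factor of the 5S particle, fell by 0.22 ± 0.03 on the log2 scale, Nolc1, a nucleolar phosphoprotein, by 0.15 ± 0.03, and Mybbp1a, a regulator of ribosomal RNA transcription, by 0.17 ± 0.03. Without replicate 1, 3 or 4, 5, 4 and 4 genes of this list fell, against 6.32%, 5.38% and 4.99% of all genes tested.

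Regulators of TOR and MYC, the pathways known for controlling ribosome production, moved downward where they moved. Of 31 tested, 0 rose and 12 fell in edgeR's blocked fit, against 10.0% and 10.4% of all genes tested. Their median was -0.086. At an unadjusted p under 0.05, 1 was higher and 17 were lower, and with the block DESeq2 called 0 higher and 8 lower and limma-voom 0 and 12. Of all genes, DESeq2 called 8.41% higher and 8.88% lower, and limma-voom 10.3% and 10.7%. In the fit on group alone 0 of the 31 fell. Without replicate 1, 3 or 4, 7, 5 and 4 fell, against 6.32%, 5.38% and 4.99% of all genes tested. Myc, the transcription factor, had 98.4 ± 14.3 CPM in cKO and 120 ± 23.0 CPM in control (SD, n = 4) and fell by 0.28 ± 0.05 on the log2 scale. Mycl, its relative, fell by 0.29 ± 0.04. Those that fell did not all act in one direction. Besides Myc, Mycl, Mtor and Rptor, which drive growth, they included Mxi1 (-0.25 ± 0.04) and Mxd1, antagonists of MYC, Tsc1, Tsc2 and Akt1s1, which restrain TOR, the translation repressors Eif4ebp1 and Eif4ebp2 (-0.17 ± 0.03), and Larp1, which binds TOP mRNAs. Of 78 mitochondrial ribosomal protein genes, which build a separate ribosome, 8 rose and 3 fell, with a median of 0.040, and the count that rose is near the 10.0% of all genes tested that did. Those with the smallest p were Mrpl48 (0.20 ± 0.04), Mrpl30 (0.16 ± 0.04), Mrps28 (0.25 ± 0.06) and Mrpl32 (0.19 ± 0.05), which rose.

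The length of the transcript moved with these differences across the whole table. Non-member protein-coding genes with annotated transcripts under 1000 bases, 717 in number, had a median log2 fold change of 0.077, with 19.1% higher and 2.09% lower. The median was 0.012 for those from 1000 up to 2000 bases, -0.022 from there up to 4000 bases and -0.029 for longer ones. The 55 members under 1000 bases had a median of 0.092 by their own counts and 0.10 with copies summed, and the 21 members from 1000 up to 2000 bases had 0.074 and 0.077. Members had a median transcript of 780 bases, against 3030 bases for other protein-coding genes tested, 1253 for the mitochondrial ribosomal protein list, 2605 for the assembly list and 4590 for the TOR and MYC list. Among non-members at 100 CPM or more, 8.70% rose and 23.8% fell, with a median of -0.042. The part of transcript length in the members' differences was not tested.

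**Figure D5:**
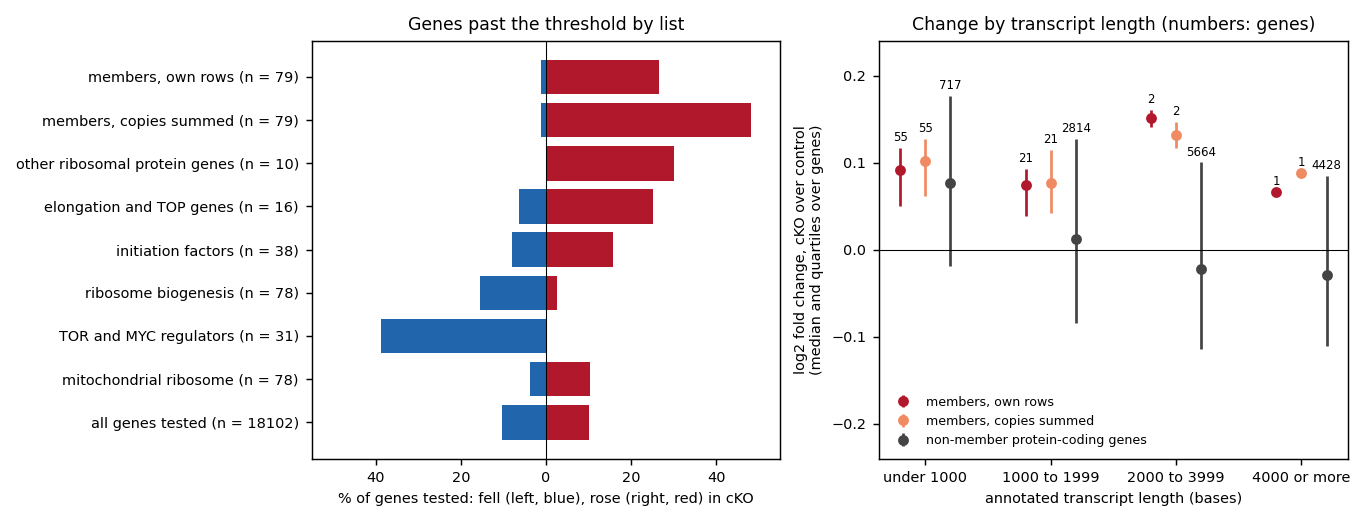
Left, the percentage of genes tested in each list that fell (blue) or rose (red) in cKO past an adjusted p of 0.05. Right, the median and quartiles of the log2 fold change by annotated transcript length for members by own counts, members with copies summed and other protein-coding genes; the members' medians lie above 0 in each class, and that of the other genes is 0.077 in the shortest class and below 0 from 2000 bases on.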

How the data were processed

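Oligo-dT captured RNA of integrity number 8 or more was sequenced, per the labels' protocols. Partek, cutadapt, STAR, DESeq2 and mm10 are named in the submitters' processing notes; the sources used here give no versions, counting program, annotation or strand setting. The authors deposited estimated counts per gene, not normalized, of which 51.6% were not whole. Counts were rounded, filtered with filterByExpr (minimum count 10; 18102 genes kept, 6053 removed), scaled by TMM and tested 2-sided with edgeR 4.0.16 in R 4.3.3 (glmQLFit, robust, and glmQLFTest) with the replicate number as a block, adjusted over all genes (Benjamini-Hochberg, threshold 0.05). In the text, "rose" and "fell" mean past that threshold, and SEs come from this fit. Log2 CPM used a prior count of 2. The procedure was tested on simulated data. At these depths the spread between libraries, not counting, limits precision for most members.

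The labels' descriptions name shared batches, so numbers pair the samples; deviations from group means correlated at 0.75 to 0.79 within a number and at most 0.39 across.

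Members and lists were chosen with earlier results of these data known. Genes were named by rule: the targeted genes, members with an l or x suffix and their parents, the 10 smallest p values per direction, members fixed by role, the 3 highest and 3 lowest per length, and the 4 smallest p values per list. A gene that the rule names is not reported here, and counts over the members include it. Transcripts, lengths and copies came from GENCODE M21, aligned with Biopython 1.88 where identity is given. A copy was a listed gene, not itself a member, with at least 50% of its 31-base words in a member's transcript. Uniqueness used 50-base windows of the coding sequence. Gene coordinates are the deposited ones in mm10.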

Additional observations from a re-analysis of the deposited data

Results flagged for a closer look

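In 118 groups of 4 libraries (levels of named genes and summed shares), 2 had a library that stood apart from the other 3 by Dixon's criterion, fewer than the 1 in 20 that chance gives. Rps20 had 134.9 CPM in cKO replicate 3, against 124.8 to 125.6 CPM in the other cKO libraries. Rpl6 had 186.7 CPM in control replicate 3, against 153 to 158 CPM in the other control libraries. Batch 3 was also the highest for most other members in both groups.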

How the results depend on the processing

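The direction of the members' median held under all settings run, at 0.064 to 0.13, and Ehmt1 and Ehmt2 fell under each of them (log2 fold change -1.23 to -1.16 and -1.62 to -1.55). The share of counts taken by members, cKO minus control, was 0.117 percentage points and 0.098 to 0.13 under its alternatives. The count of members that rose depended most on the block and the scaling. It was 0 with group alone and no replicate block, where 0 fell, against 0.00552% of all genes that rose and 0.011% that fell. It was 47 with library totals alone, against 15% of all genes, and 38 with copies summed, against 10.2%. Without each replicate it was 7 to 27 (1 fell each time), against 6.21% to 9.43% of all genes. The share of all genes that fell was then 4.99% to 9.58%. Large subunit members that rose numbered 0, 27, 25 and 4 to 17 in these settings, and small subunit members 0, 20, 13 and 2 to 10. With upper-quartile factors and DESeq2, 20 and 8 large subunit members rose, against 11.2% and 8.41% of all genes. Among protein-coding genes alone 0 members fell, since Rps4l was not tested. Library totals alone gave medians of 0.13 for all members, 0.14 for large and 0.12 for small subunit members, while the median of all genes tested was 0.042. Medians without each replicate were 0.064 to 0.096, 0.068 to 0.10 and 0.061 to 0.094. Where a count moved, the cause was not tested.

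Without the replicate block 0 genes of every list passed, against 0.00552% of all genes that rose and 0.011% that fell. With library totals alone, 7 elongation and 7 assembly genes, 1 TOR and MYC regulator and 21 mitochondrial ribosomal genes rose, and 0 initiation factors, 5 assembly genes, 5 TOR and MYC regulators and 1 mitochondrial ribosomal gene fell. Of all genes tested, 15% rose and 5.38% fell under that setting. Upper-quartile factors gave 0 initiation factors lower and 13 mitochondrial ribosomal genes higher and 1 lower, and protein-coding genes alone also gave 13 higher. Of all genes tested, 11.2% rose and 8.58% fell with upper-quartile factors, and 12.5% rose among protein-coding genes alone. With no filter, 1 initiation factor and 1 mitochondrial ribosomal gene fell, against 7.08% of all genes. With limma-voom, 5 initiation factors and 2 elongation genes fell, against 10.7% of all genes. With DESeq2, 7 assembly genes and 1 mitochondrial ribosomal gene fell, against 8.88% of all genes. In DESeq2 5 mitochondrial ribosomal genes rose, against 8.41% of all genes. Without each replicate, risers and fallers numbered 1 to 3 and 0 (ribosomal protein genes outside the rule), 1 to 4 and 1 to 2 (elongation), 1 to 5 and 0 to 2 (initiation), 1 to 3 and 4 to 8 (assembly), 0 and 4 to 14 (TOR and MYC), and 2 to 7 and 0 to 1 (mitochondrial ribosome). Of all genes tested, 6.21% to 9.43% rose and 4.99% to 9.58% fell in these fits.

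Rplp0 was at -0.017 to 0.035 without each replicate, negative without replicate 1, and Rplp2 was at 0.015 with library totals alone; neither passed. With RLE factors, without ribosomal RNA and mitochondrial genes, with scaling by non-members or at 1 CPM in 4 libraries, 20, 23, 21 and 23 members rose. Of all genes tested, 9.83%, 10.4%, 10.1% and 11.5% rose under these settings.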
